A study of Mus musculus with 105 samples.

Results

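Liver of wild-type (WT) mice given diethylnitrosamine (DEN), a liver carcinogen, was compared between 8 and 5 months of age, using at 8 months the tissue labelled non-tumour. The libraries were taken by their labels. Set 1 held 4 libraries of 8-month non-tumour liver and 4 of 5-month liver from the first sequencing group, and set 2 held 3 and 3 from the second. Together they made 8 of the 60 libraries of the first group and 6 of the 45 of the second, and all 12966 listed genes were tested. The series follows liver RNA of DEN-treated mice through ages of 1, 3, 5 and 8 months in WT and in 4 knockout lines labelled IKO, SKO, BKO and MKO, with tumours at 8 months, and its title places the losses in hepatocytes. All 4 groups described here were WT, treated with DEN and labelled as normal liver, and their replicates were labelled biological. The labels name no sex, strain or DEN dose, give no age at injection and do not say whether the animals were pooled. None of the groups was untreated, so age and time since DEN cannot be told apart.

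DEN is activated by cytochromes of the hepatocyte, the main liver cell, and leaves DNA adducts from which tumours grow over months in mice. The hepatocyte makes albumin and other plasma proteins, fatty acids and cholesterol, and sets body iron through the hormone hepcidin. In rodents, the pulses of growth hormone that differ between the sexes set the level of many of its genes through the transcription factor STAT5b.

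The libraries held 6125626 to 8541345 reads over the listed genes in 8-month non-tumour liver of set 1 and 6558729 to 7807674 in 5-month liver of set 1. In set 2 they held 10521461 to 11087825 in 8-month non-tumour liver and 10972598 to 13598755 in 5-month liver. Levels below are normalised reads, obtained by undoing the transform of the deposited values. Differences are 8 months non-tumour minus 5 months on the deposited log2 scale, which understates the change of genes with few reads. Adjusted p-values are from limma with Benjamini-Hochberg adjustment over all genes, and a gene was called below 0.05. The SE and p of a difference rest on a spread pooled over all groups of the fit, knockouts and tumours included. All 14 libraries carried the hepatocyte's defining transcripts. Albumin (Alb) took 1.90% to 6.27% of reads in 8-month non-tumour liver and 6.52% to 7.39% in 5-month liver of set 1, and 2.30% to 5.23% in 8-month non-tumour liver and 5.11% to 5.75% in 5-month liver of set 2. The Y-linked genes Ddx3y, Kdm5d, Eif2s3y and Uty had reads in all 14 libraries, between 7 and 253 each.

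Libraries of the 2 sets deviated together, so the sets were not taken as independent replicates. Over 4879 genes with a mean of at least 7 on the log2 scale, the deviations of each library from its group mean were correlated between the sets. Replicates 1, 2 and 3 of 8-month non-tumour liver in set 2 went with replicates 1, 2 and 3 of set 1, with Pearson's r of 0.52, 0.67 and 0.64. Replicates 1, 2 and 3 of 5-month liver in set 2 went with replicates 2, 3 and 4 of set 1, with r of 0.45, 0.26 and 0.41. The next highest r of any of these 6 libraries was 0.175. The labels do not say whether the same livers were sequenced in both groups. Most list counts over both sets, and part of the named genes, are therefore also given with each pair averaged to 1 value, 3 pairs against 3. This pairing was taken from the data and not from the design. Averaging ended 19 of the 54 calls of named genes over both sets, so a call given without it may not hold. Set 1 replicate 4 at 8 months and replicate 1 at 5 months had no partner.

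**Figure D1:**
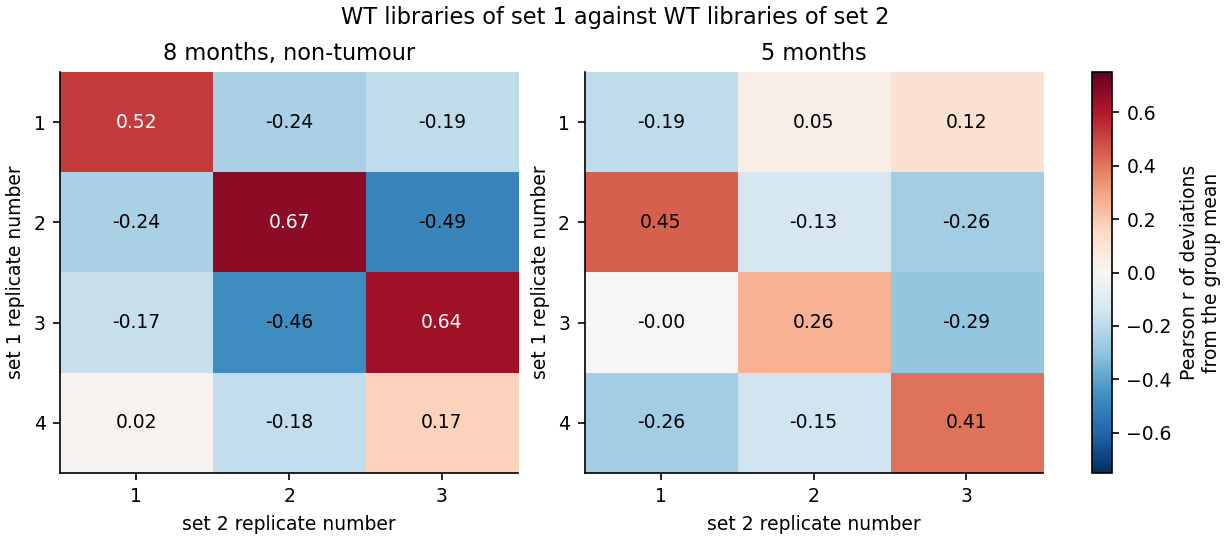
Pearson's r between the deviations of set 1 libraries (vertical axis, replicate number) and set 2 libraries (horizontal axis) from their own group means, over 4879 genes, for 8-month non-tumour liver (left) and 5-month liver (right). At 8 months the 3 high values (0.52, 0.67 and 0.64) lie on equal replicate numbers, and at 5 months the 3 high values (0.45, 0.26 and 0.41) are shifted by 1.

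In set 1, 2820 genes (21.7%) were called, 1387 higher and 1433 lower at 8 months. In set 2, 5 genes (0.0386%) were called, 0 higher and 5 lower, while 538 higher (4.15%) and 529 lower (4.08%) had an unadjusted p below 0.05. limma-voom on recovered reads called 3 genes in set 2 and 0 of them higher. With only the compared groups in the fit, 2870 genes were called in set 1 and 4 in set 2. The median standard error of a gene was 0.18 in set 1 and 0.18 in set 2, and the median size of the difference was 0.24 in set 1 and 0.14 in set 2. The mean of both sets gave 1505 calls (11.6%), 732 higher and 773 lower. With the 6 paired libraries of set 1 alone, 2241 genes (17.3%) were called in set 1. With each pair of libraries averaged, 426 genes (3.29%) were called, 211 higher (1.63%) and 215 lower (1.66%). The age difference itself differed between the sets at 1058 genes (8.16%). Scaling to total reads in place of the deposited size factors moved the median of all genes to 0.205 in set 1 and 0.0792 in set 2. That scaling turned the split to 2134 higher (16.5%) and 587 lower (4.53%) in set 1, and to 1474 higher (11.4%) and 252 lower (1.94%) over both sets. Below, changes are relative to the deposited scaling unless said.

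Across the 12966 genes the differences of the 2 sets had a Pearson's r of 0.30. Of the 2820 genes called in set 1, 55.5% had the same sign in set 2, against 54.6% of all genes. The 1387 genes higher in set 1 had a median difference of 0.63 there and 0.01 in set 2. The 1433 lower genes had a median of -0.59 in set 1 and -0.04 in set 2. Groups did not overlap in both sets, in the same direction, at 404 genes (3.12%), of which 158 were higher (1.22%) and 246 lower (1.9%) at 8 months, and they lay apart in opposite directions at 182 (1.4%). Of the 404 genes, 315 (2.43% of all genes) were also called over both sets, 132 higher (1.02%) and 183 lower (1.41%), and 10 higher and 8 lower genes reached a 2-fold difference in each set.

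**Figure D2:**
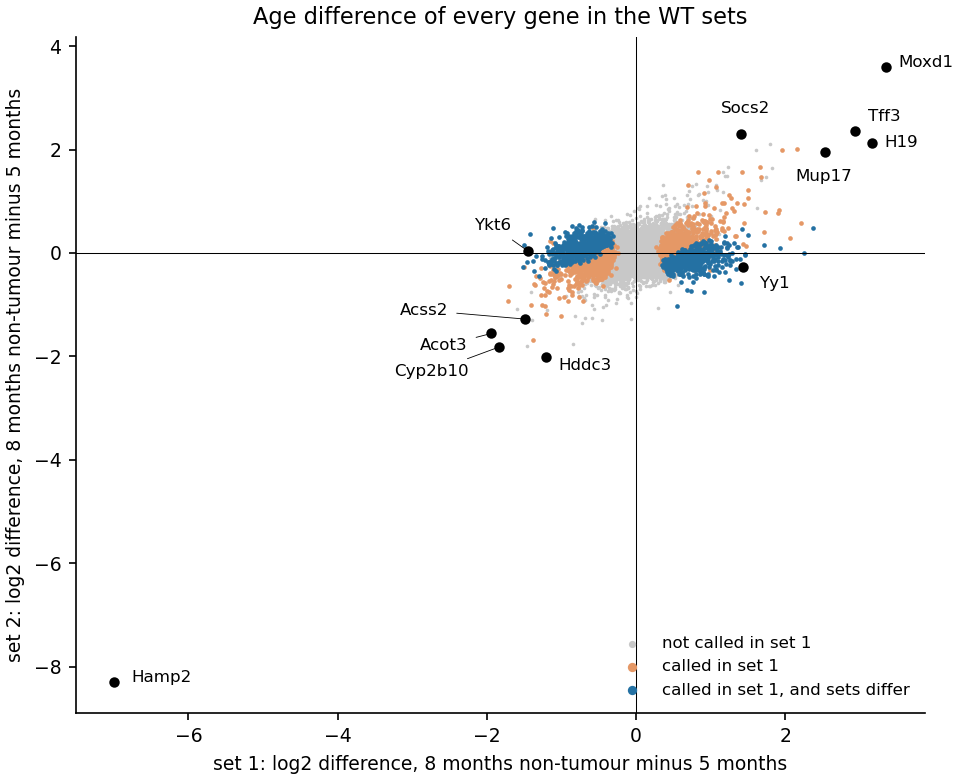
Each point is 1 gene, with its log2 difference (8 months non-tumour minus 5 months) in set 1 on the horizontal axis and in set 2 on the vertical axis. Orange genes were called in set 1, blue genes were called in set 1 and differed between the sets, and black genes are named in the text. Hamp2 lies at -6.99 and -8.30, Moxd1 at 3.35 and 3.59, and Ykt6 and Yy1 lie close to 0 in set 2.

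The largest difference in either set belonged to Hamp2, the second of the mouse hepcidin genes (chr7:30922372-30924181, GRCm38). Set 1 had 497, 108, 326 and 393 normalised reads in the 8-month non-tumour livers, against 1897, 139348, 127468 and 80952 in the 5-month livers. Set 2 had 438, 177 and 250 normalised reads at 8 months, against 99926, 101551 and 81256 at 5 months. The groups did not overlap in either set, and the lowest 5-month library, replicate 1 of set 1, was 1 of those without a partner. Hamp2 fell by 6.99 ± 0.94 on the log2 scale in set 1 (SE, adjusted p = 2.42e-07) and by 8.30 ± 0.77 in set 2 (adjusted p = 1.34e-08). With each pair averaged the difference was -8.44 (adjusted p = 3.49e-05). Hamp2 did not follow age in 1 direction, and in set 1 it averaged 21620 normalised reads at 1 month, 1270 at 3 months, 87416 at 5 months and 331 at 8 months. Group means of set 2 had the same order, with 26583 at 1 month, 1082 at 3 months, 94244 at 5 months and 288 at 8 months. The libraries at 1 month spread widely, with 2259, 4484, 40566 and 39169 normalised reads in set 1 and 3508, 33563 and 42679 in set 2. At 3 months Hamp2 had 433, 593, 2589 and 1464 in set 1 and 410, 818 and 2018 in set 2, so 1 library at 1 month of set 1 lay inside the 3-month range. Its level in mouse liver is known to differ with strain and sex. The labels give neither, and all 14 libraries had reads of the Y-linked genes named above. Among the knockouts, whose age differences were each fitted the same way, Hamp2 differed by -1.66 in IKO (adjusted p = 0.191), -0.19 in SKO (0.910), -3.69 in BKO (0.0442) and 0.02 in MKO (0.995). Tested as knockout minus WT, the difference with age was higher by 6.80 in SKO (adjusted p = 0.00943) and by 8.31 in MKO (adjusted p = 7.53e-05), and was not called in IKO (5.33, adjusted p = 0.273) or BKO (4.61, adjusted p = 0.177).

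The neighbouring hepcidin gene Hamp (chr7:30942368-30944029), which encodes the circulating iron hormone, was looked up after the values of Hamp2 were seen. It had 109257, 37462, 168346 and 106004 normalised reads at 8 months in set 1, against 222138, 173529, 169068 and 139951 at 5 months, and was not called (-0.91 ± 0.41, adjusted p = 0.108). Levels in set 2 were 125176, 64720 and 260656 at 8 months, against 103108, 114868 and 129018 at 5 months, with overlapping groups (0.16 ± 0.78, adjusted p = 0.977). The pair are near-identical copies, so reads could be assigned to the wrong one, and the level of each is uncertain to that extent. The 120 bases before the RefSeq start of Hamp2 were aligned without gaps to the best-matching window before Hamp, which ends 3 bases short of its start (GRCm38.p6, both on the minus strand of chromosome 7), and 109 bases were identical and 11 differed (90.8% identity). The windows are shown because the copies share most of their proximal promoter and yet only Hamp2 was called between the ages. Capitals mark the differing bases. They lie at chr7:30924182-30924301 (Hamp2) and chr7:30944033-30944152 (Hamp).
Hamp2: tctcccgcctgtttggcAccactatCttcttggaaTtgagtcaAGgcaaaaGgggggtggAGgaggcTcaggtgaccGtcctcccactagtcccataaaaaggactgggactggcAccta
Hamp: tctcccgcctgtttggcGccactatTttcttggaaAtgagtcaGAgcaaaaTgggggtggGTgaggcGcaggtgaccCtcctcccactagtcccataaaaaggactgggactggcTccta

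Hddc3, an HD-domain metal-dependent phosphohydrolase (chr7:80343075-80346716), also had higher group means at 1 and 5 months than at 3 and 8 months in each set, at a much lower level. In set 2 Hddc3 averaged 83.6 normalised reads at 1 month and 81.7 at 5 months. In set 1 it had 5.32, 4.87, 8.04 and 14.7 normalised reads at 8 months, against 12.3, 53.1, 59.0 and 62.8 at 5 months. The libraries of set 2 had 5.03, 5.59 and 6.74 at 8 months, against 91.0, 84.1 and 70.1 at 5 months. Only replicate 1 of the 5-month livers in set 1, which was also the lowest for Hamp2, fell within the range of the 8-month livers. Hddc3 fell by 1.21 ± 0.24 in set 1 (SE, adjusted p = 0.000172), by 2.02 ± 0.33 in set 2 (adjusted p = 0.00269) and by 1.83 with pairs averaged (adjusted p = 0.000367). The other genes called in set 2 were Fam13a, at -1.30, Pnrc1, a nuclear receptor coactivator, at -1.03, and Dbndd2 at -0.71. Fam13a was not called in set 1 (-0.46, adjusted p = 0.235). Dbndd2 had at most 16.1 normalised reads in any of the 14 libraries and was not called in set 1 (adjusted p = 0.739). Pnrc1 rose by 0.55 in set 1 (adjusted p = 0.0456), a call lost without any of 6 of the 8 libraries in turn (0.43 to 0.58), and the sets differed for it (1.58 ± 0.30, adjusted p = 0.000200). The calls of these 3 genes in set 2 were each lost without replicate 1 or 2 of the 5-month livers or replicate 1 of the 8-month livers, where Fam13a differed by -1.23, -1.14 and -1.05. Dbndd2 was also lost without replicate 2 of the 8-month livers, and Pnrc1 without replicate 2 or 3. Over both sets Fam13a fell by 0.88 (adjusted p = 0.00111).

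**Figure D3:**
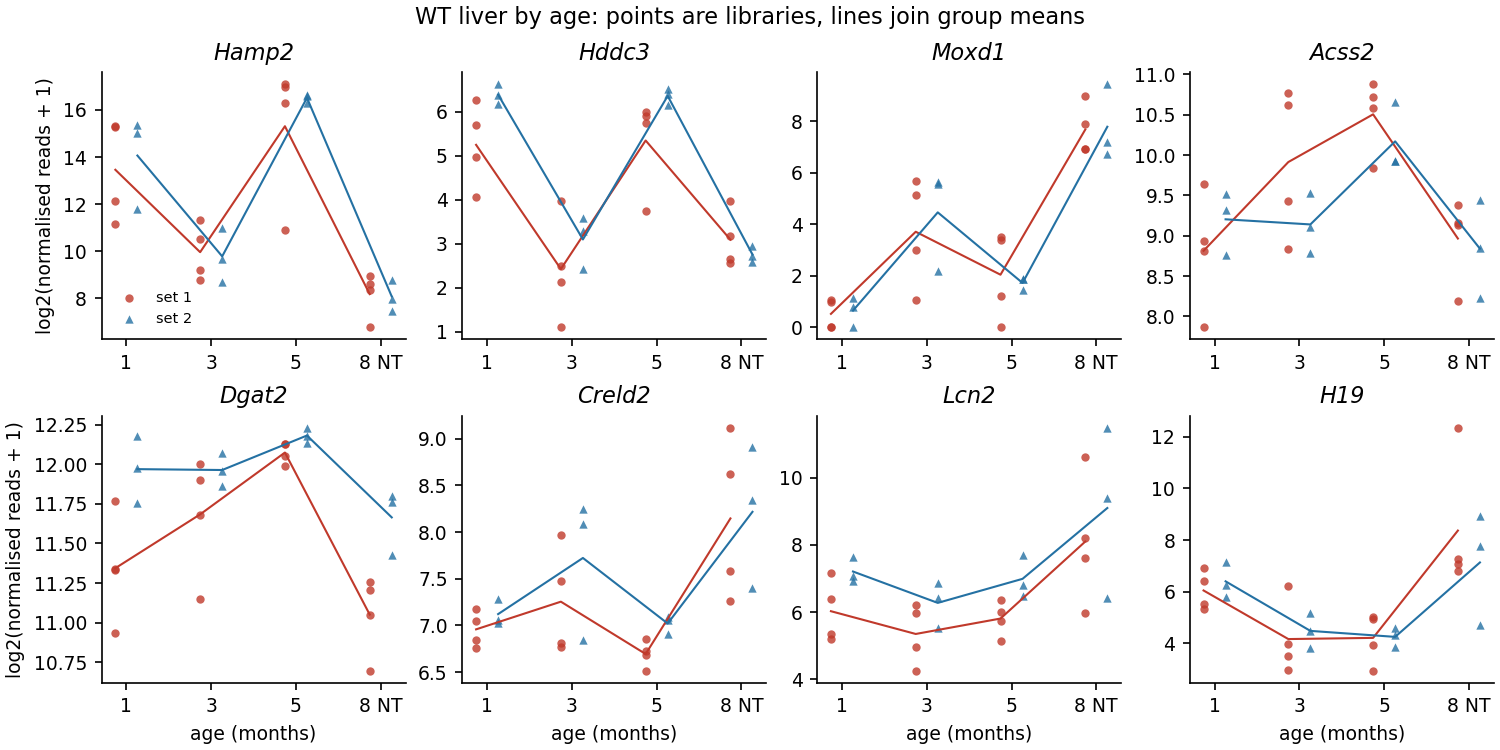
Levels of 8 genes in WT liver at 1, 3, 5 and 8 months (non-tumour at 8), as log2 of normalised reads plus 1, with 1 point per library and lines through group means (red circles set 1, blue triangles set 2). The group means of Hamp2 and Hddc3 are higher at 1 and 5 months than at 3 and 8 months in both sets, with a wide spread at 1 month in set 1, Moxd1 is highest at 8 months, and 1 set 1 library stands above the others for H19 at 8 months.

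Genes of fatty acid and triglyceride synthesis were lower at 8 months than at 5 months. Of the 32 members of this list, 0 rose and 8 fell in set 1, where 11.1% of all genes fell, and 0 rose and 7 fell over both sets, where 5.96% of all genes fell. The median difference of the list was -0.27 in set 1 and -0.19 in set 2, against 0.00 for all genes in both. Acss2, which makes cytosolic acetyl-CoA from acetate, had 663, 290, 572 and 562 normalised reads at 8 months in set 1, against 1879, 913, 1685 and 1538 at 5 months. Set 2 had 694, 298 and 461 at 8 months, against 973, 1610 and 973 at 5 months. The groups did not overlap in either set, and the difference was -1.49 ± 0.35 in set 1 (adjusted p = 0.00138), -1.28 ± 0.38 in set 2 (adjusted p = 0.314) and -1.35 with pairs averaged (adjusted p = 0.0435). Acss2 did not follow age in 1 direction, with 232 to 798 normalised reads at 1 month in set 1 and 434 to 735 in set 2, below the 5-month range of each.

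Dgat2, which adds the last fatty acid to triglyceride, had 2361, 1660, 2116 and 2445 normalised reads at 8 months in set 1, against 4056, 4477, 4464 and 4252 at 5 months. For set 2 the levels were 3569, 2753 and 3478 at 8 months, against 4797, 4641 and 4492 at 5 months. Again no 8-month library reached the 5-month range of its set, and Dgat2 fell by 1.01 ± 0.16 in set 1 (adjusted p = 3.59e-06) and by 0.76 over both sets (adjusted p = 2.83e-05). Averaging pairs gave -0.81 (adjusted p = 0.0236). G0s2, an inhibitor of the lipase that opens lipid droplets, averaged 103 ± 45.4 normalised reads at 8 months and 389 ± 100.4 at 5 months in set 1 (SD, n = 4 each) and fell by 1.72. In set 2 it averaged 120 ± 16.8 at 8 months and 266 ± 128 at 5 months (SD, n = 3 each), a difference of -0.92 that was not called. At 1 month G0s2 was also below its 5-month range, with 51.0 to 191 in set 1 and 65.0 to 164 in set 2. Dgat2 at 1 month had 1956 to 3492 in set 1, below its 5-month range, and 3450 to 4640 in set 2, overlapping it. Acly, the ATP citrate lyase, fell by 1.27 in set 1, which was not called without replicate 2 of the 8-month livers (-0.88), and by 1.04 over both sets, but its adjusted p was 0.106 with pairs averaged. Fatty acid synthase (Fasn) and Thrsp, a lipogenic regulator, were added after their values were seen, and fell by 1.04 and 1.22 in set 1 with adjusted p of 0.0473 and 0.0443. Fasn was not called in set 1 without any of 6 of the 8 libraries in turn (-1.10 to -0.59) and Thrsp without any of 7 (-1.32 to -1.02), so neither call was stable to leaving out a library. With pairs averaged, 0 members rose and 4 fell, where 1.66% of all genes fell. Under total-read scaling, 0 members rose and 4 fell in set 1, where 4.53% of all genes fell. Over both sets 1 rose and 4 fell under that scaling, where 11.4% of all genes rose and 1.94% fell.

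Genes of cholesterol synthesis were also lower. Of the 24 members, 0 rose and 5 fell in set 1, where 11.1% of all genes fell. Over both sets 0 rose and 4 fell, where 5.96% of all genes fell. The list medians were -0.38 in set 1 and -0.21 in set 2. Tm7sf2, a sterol reductase, averaged 194 ± 35.1 normalised reads at 8 months and 516 ± 107 at 5 months in set 1, and 177 ± 31.1 at 8 months and 259 ± 43.2 at 5 months in set 2 (SD). It fell by 1.29 in set 1, by 0.89 over both sets and by 0.83 with pairs averaged (adjusted p = 0.0273). Acat2, which makes acetoacetyl-CoA for the pathway, fell by 0.77 in set 1, not called without replicate 2 of the 8-month livers (-0.59), and by 0.60 over both sets, but its adjusted p was 0.138 with pairs averaged. With pairs averaged 0 members rose and 1 fell, where 1.66% of all genes fell. Total-read scaling left 2 falls and 0 rises in set 1 and over both sets. Under it 4.53% of all genes were lower in set 1 and 1.94% over both sets.

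Genes of fatty acid oxidation, many of them targets of the nuclear receptor PPARα, were also lower. Of 34 members, 1 rose and 8 fell in set 1, where 10.7% of all genes rose and 11.1% fell. Over both sets 0 rose and 8 fell, where 5.96% of all genes fell. The list medians were -0.31 in set 1 and -0.20 in set 2. Under total-read scaling the count in set 1 was 4 higher and 5 lower, where 16.5% of all genes were higher and 4.53% lower. Over both sets it was 1 higher and 4 lower under that scaling, where 11.4% of all genes were higher and 1.94% lower. With pairs averaged, 0 members rose and 4 fell, where 1.66% of all genes fell. Acot3, a peroxisomal thioesterase, had 66.0, 75.5, 89.8 and 22.8 normalised reads at 8 months in set 1, against 315, 288, 212 and 405 at 5 months. The libraries of set 2 had 48.6, 71.1 and 104 at 8 months, against 254, 222 and 317 at 5 months, so the groups lay apart in both. Acot3 fell by 1.94 ± 0.58 in set 1 (adjusted p = 0.0115), which was lost without replicate 4 of the 8-month livers (-1.66), and by 1.75 over both sets (adjusted p = 0.00319). Averaging pairs gave -1.60 (adjusted p = 0.0150). Ehhadh, the peroxisomal bifunctional enzyme, fell by 1.34 in set 1, by 0.89 over both sets and by 0.86 with pairs averaged (adjusted p = 0.0236). Ppara itself was the member that rose in set 1 (1.19 ± 0.18, adjusted p = 2.34e-06), whereas in set 2 its difference was -0.37, and the sets differed (1.56 ± 0.30, adjusted p = 0.000248).

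Among drug-metabolism genes controlled by the nuclear receptors CAR and PXR, more were lower than higher at 8 months. Of 28 members, 2 rose and 5 fell in set 1, where 10.7% of all genes rose and 11.1% fell. Over both sets 2 rose and 5 fell, where 5.65% of all genes rose and 5.96% fell. The list medians were -0.24 in set 1 and -0.33 in set 2. Total-read scaling gave 3 higher and 3 lower in set 1, where 16.5% of all genes were higher and 4.53% lower. Over both sets that scaling gave 1 higher and 3 lower, where 11.4% of all genes were higher and 1.94% lower. In set 2, 15 members lay apart and lower and 0 apart and higher, against 8.42% and 7.38% of all genes. In both sets 5 lay apart and lower, against 1.9% of all genes. With pairs averaged 1 rose and 4 fell, where 1.63% of all genes rose and 1.66% fell. CAR (Nr1i3) had 1042, 991, 813 and 660 normalised reads at 8 months in set 1, against 1316, 1695, 1630 and 1748 at 5 months. Set 2 had 1888, 1590 and 1186 at 8 months, against 2638, 2507 and 3000 at 5 months. No library of 1 age reached the range of the other within a set. CAR fell by 0.86 ± 0.23 in set 1 (adjusted p = 0.00470), by 0.84 over both sets (adjusted p = 0.0117) and by 0.82 with pairs averaged (adjusted p = 0.0270). Its target Cyp2b10 had 79.9, 2.44, 72.4 and 28.2 normalised reads at 8 months and 130, 357, 335 and 62.8 at 5 months in set 1, and fell by 1.84 ± 0.44 (adjusted p = 0.00148). In set 2 Cyp2b10 differed by -1.82 (adjusted p = 0.357), and with pairs averaged it was not called (adjusted p = 0.126).

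Alb fell by 0.90 ± 0.30 in set 1 (adjusted p = 0.0224) and by 0.76 over both sets (adjusted p = 0.00964), but was not called with pairs averaged (adjusted p = 0.225). Replicate 2 of the 8-month livers was far below the others in set 1, with 162419 normalised reads against 480841, 545997 and 515248. Without it the difference in set 1 was -0.48 and was not called (adjusted p = 0.264), and over both sets Alb was not called without replicate 2 of set 1 (-0.55) or of set 2 (-0.58). In bulk tissue, fewer cells of a type and less RNA per cell cannot be told apart.

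Genes with higher levels in male than in female mouse liver were higher at 8 months. Of 27 members, 6 rose and 0 fell in set 1, where 10.7% of all genes rose, and 7 rose and 0 fell over both sets, where 5.65% of all genes rose. The list median was 0.55 in set 1 and 0.55 in set 2, and 9 of the 27 lay apart and higher in both sets, against 1.22% of all genes. With pairs averaged 11 rose and 0 fell, where 1.63% of all genes rose. Moxd1, a copper-dependent monooxygenase-like gene (chr10:24223517-24302783), had 120, 501, 122 and 236 normalised reads at 8 months in set 1, against 9.59, 0, 1.34 and 10.5 at 5 months. Levels in set 2 were 145, 692 and 106 at 8 months, against 1.69, 2.66 and 2.62 at 5 months. Every 8-month library lay above every 5-month library, and Moxd1 rose by 3.35 ± 0.61 in set 1 (adjusted p = 4.98e-05). In set 2 the difference was 3.59 ± 0.87 (adjusted p = 0.142), and with pairs averaged it was 3.52 (adjusted p = 0.0203). In the WT tumours Moxd1 had at most 95.6 normalised reads, and 0 in 4 of the 7 tumour libraries.

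Genes with higher levels in female than in male mouse liver were counted in the same way. The list of 24 had 18 measured members. Of these, 0 rose and 2 fell in set 1, where 10.7% of all genes rose and 11.1% fell. Over both sets 1 rose and 2 fell, where 5.65% of all genes rose and 5.96% fell. With pairs averaged 0 rose and 2 fell, where 1.66% of all genes fell. The list medians were 0.16 in set 1 and -0.02 in set 2. The members that fell were Hamp2 and Acot3, both described above. The member that rose over both sets was Cyp2a4, a steroid hydroxylase with a near-identical neighbour, so its level is uncertain. Cyp2a4 had 60.7, 37.8, 84.4 and 1063 normalised reads at 8 months in set 1, against 23.3, 15.8, 24.1 and 61.3 at 5 months, and 138, 481 and 74.1 at 8 months in set 2, against 25.3, 5.31 and 79.3 at 5 months. The groups overlapped in both sets, and replicate 4 of set 1 was far above the rest, as it was for H19 below. WT tumours had 7832 to 19048 normalised reads of Cyp2a4 in set 1 and 3726 to 14652 in set 2. Its call over both sets (1.79, adjusted p = 0.0360) was lost without any of 8 of the 14 libraries in turn (1.33 to 1.87) and with pairs averaged (adjusted p = 0.0780).

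The major urinary protein genes (Mup), which encode pheromone carriers made in the liver, are near-identical copies, so their separate levels are uncertain. Mup17 had 10645, 11496, 5601 and 4330 normalised reads at 8 months in set 1, against 790, 1213, 1201 and 2156 at 5 months, and in set 2 15388, 15444 and 7673 at 8 months, against 3003, 2762 and 3767 at 5 months. The groups lay apart in both sets. Mup17 rose by 2.53 ± 0.90 in set 1 (adjusted p = 0.0354), differed by 1.95 ± 1.31 in set 2 (adjusted p = 0.745) and rose by 2.26 with pairs averaged (adjusted p = 0.0161). Its call over both sets (adjusted p = 0.0499) was lost without any of 12 of the 14 libraries in turn (2.13 to 2.36), and that in set 1 without any of 5 of the 8 (2.31 to 2.51). Mup1 and Mup12 rose by 2.22 and 2.06 in set 1, and their differences in set 2 were 0.59 and 0.28. Egfr, the epidermal growth factor receptor, rose by 0.88 ± 0.21 over both sets (adjusted p = 0.00290) and by 0.98 with pairs averaged (adjusted p = 0.0197). Its levels were 4341, 5698, 5180 and 4161 normalised reads at 8 months in set 1, against 3729, 3006, 2499 and 2511 at 5 months, and 3706, 4953 and 4282 at 8 months in set 2, against 2262, 1835 and 2122 at 5 months.

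In the growth hormone pathway, Socs2, the inhibitor that STAT5b induces, rose by 1.41 ± 0.49 in set 1 (adjusted p = 0.0304) and by 1.86 over both sets (adjusted p = 0.000333). Averaging pairs gave 2.13 (adjusted p = 0.0270). The libraries of set 2 had 177, 519 and 449 normalised reads at 8 months, against 47.2, 64.6 and 41.9 at 5 months, with no overlap (2.30 ± 0.51, adjusted p = 0.0932). In set 1 it had 133, 432, 414 and 97.9 at 8 months, against 121, 41.6, 75.1 and 55.3 at 5 months, and replicate 4 of the 8-month livers lay below 1 of the 5-month livers. Its call in set 1 was lost without any of 5 libraries in turn, replicates 2 and 3 at 8 months among them (1.12 and 1.14), and its call over both sets was kept without each. Stat5b itself went the other way. It averaged 73.9 ± 17.7 normalised reads at 8 months and 229 ± 14.1 at 5 months in set 1, and 65.3 ± 12.4 at 8 months and 89.8 ± 9.42 at 5 months in set 2 (SD). Stat5b fell by 1.37 in set 1 (adjusted p = 6.04e-08), differed by -0.35 in set 2 (adjusted p = 0.586) and differed between the sets (-1.02 ± 0.25, adjusted p = 0.00459). STAT factors bind TTC and GAA with 3 bases of any kind between them (TTCNNNGAA), which reads the same on both strands. In the 250 bases before each RefSeq start (GRCm38.p6) this motif was found in 2306 of 32851 promoters (7.02%) and in 776 of 13034 promoters of the genes tested (5.95%). Counted by gene, it was in 2 of the 19 male-biased genes with a promoter (10.5%).

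Chaperones of the endoplasmic reticulum, where secreted proteins are folded, were higher at 8 months. Of the 24 members of the endoplasmic reticulum stress list, 4 rose and 1 fell in set 1, where 10.7% of all genes rose and 11.1% fell, and 10 rose and 1 fell over both sets, where 5.65% of all genes rose and 5.96% fell. The list medians were 0.28 in set 1 and 0.45 in set 2, and with pairs averaged 5 rose and 1 fell, where 1.63% of all genes rose and 1.66% fell. Many genes of this response carry the endoplasmic reticulum stress element, CCAAT and CCACG with 9 bases of any kind between them, which in mammals is bound by the factors NF-Y and ATF6. The element was searched on both strands of the 250 bases before each RefSeq start (GRCm38.p6). It was found in 37 of 32851 promoters (0.113%) and in 18 of 13034 promoters of the genes tested (0.138%). Counted by gene, it was in 6 of the 22 list members with a promoter (27.3%). Of the 10 members called higher over both sets, 8 had a promoter, and 4 of these held the element (50.0%). The list was made of genes of this response, many of which carry the element, so these shares are not a result about age. The element was in 0 of the 12 heat shock genes and 0 of the 19 male-biased genes with a promoter. The 6 promoter windows are shown with the fixed letters of the element in capitals, read along the gene, so that the element appears as CGTGG followed by ATTGG where it lies on the opposite strand. They lie at chr15:88819500-88819558 (Creld2, plus strand), chr10:86705618-86705676 (Hsp90b1, minus), chr12:17266471-17266529 (Pdia6, plus), chr8:84847055-84847113 (Calr, minus), chr2:34772005-34772063 (Hspa5, plus) and chr10:75893222-75893280 (Derl3, plus).
Creld2: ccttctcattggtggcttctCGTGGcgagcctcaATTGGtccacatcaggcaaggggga
Hsp90b1: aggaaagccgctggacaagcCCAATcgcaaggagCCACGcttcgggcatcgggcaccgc
Pdia6: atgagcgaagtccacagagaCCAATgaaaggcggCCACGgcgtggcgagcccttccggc
Calr: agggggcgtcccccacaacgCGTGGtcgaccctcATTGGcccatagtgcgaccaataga
Hspa5: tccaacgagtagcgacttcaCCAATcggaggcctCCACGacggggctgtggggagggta
Derl3: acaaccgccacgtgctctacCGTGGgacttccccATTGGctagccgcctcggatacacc

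Creld2, a secreted chaperone-like protein, had 394, 554, 190 and 153 normalised reads at 8 months in set 1, against a range of 90.4 to 115 at 5 months. Set 2 had 324, 480 and 168 at 8 months, against 132, 135 and 119 at 5 months. The groups lay apart in both sets, and Creld2 rose by 1.28 ± 0.39 in set 1 (adjusted p = 0.0143) and by 1.17 over both sets (adjusted p = 0.00434), but its adjusted p was 0.0540 with pairs averaged. In set 1 it was not called without replicate 1 (1.13) or replicate 2 (0.98) of the 8-month livers. Hsp90b1, the chaperone also called GRP94, had 7033, 7208, 5369 and 4086 at 8 months in set 1, against 2400, 2828, 2527 and 2595 at 5 months, and rose by 1.15 ± 0.21 (adjusted p = 5.61e-05). For set 2 the levels were 6184, 6382 and 3720 at 8 months, against 3952, 3473 and 4282 at 5 months, with replicate 3 at 8 months inside the 5-month range (0.44 ± 0.27, adjusted p = 0.703). For both genes, replicates 1 and 2 at 8 months were the 2 highest libraries of each set.

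Pdia4, a disulphide isomerase, rose by 1.0 in set 1 and by 0.79 over both sets. The genes from Pdia6 to Dnajb9 below were chosen after their values were seen. Over both sets Pdia6, another disulphide isomerase, rose by 0.60, the calcium-binding chaperone Calr by 0.38 and the transcription factor gene Xbp1 by 0.78. Xbp1 was not called without replicate 1 or 2 at 5 months or replicate 2 at 8 months of set 2 (0.71 to 0.76). Calr differed by 0.05 in set 1 and by 0.71 in set 2, and its call over both sets was lost without any of 11 of the 14 libraries in turn (0.33 to 0.41) and with pairs averaged (adjusted p = 0.106). Hspa5, which encodes the chaperone BiP, had 3079, 4373, 2384 and 1858 normalised reads at 8 months in set 1, against 2383, 2839, 2319 and 2378 at 5 months, and was not called over both sets (0.31, adjusted p = 0.374). Neither was Derl3, a component of the pathway that removes misfolded proteins (0.73, adjusted p = 0.154). Dnajb9, a BiP cochaperone, was the list member that fell, by 0.98 in set 1 and by 0.58 over both sets. The call of Dnajb9 over both sets was lost without any of 7 of the 14 libraries in turn (-0.61 to -0.54). Of 16 heat shock genes, 4 rose and 0 fell in set 1, where 10.7% of all genes rose. Over both sets 5 rose and 0 fell, where 5.65% of all genes rose. Among them were the mitochondrial chaperonin Hspe1 (1.18 in set 1) and the cytosolic chaperone Hsp90aa1 (0.99 in set 1). Without replicate 2 at 8 months, Hsp90aa1 differed by 0.77 in set 1 and was not called. With pairs averaged 0 heat shock genes were called by limma, where Hspe1 had an adjusted p of 0.0590 and Hsp90aa1 of 0.0728.

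Acute-phase genes, which hepatocytes raise on inflammatory signals, were higher in some of the 8-month livers. Of 26 members, 4 rose and 0 fell in set 1, where 10.7% of all genes rose, and 5 rose and 0 fell over both sets, where 5.65% of all genes rose, with medians of 0.42 in set 1 and 0.35 in set 2. Total-read scaling gave 8 higher and 0 lower in set 1, where 16.5% of all genes were higher under it. Serum amyloid A1 (Saa1), looked up after its values were seen, had 3157, 10275, 245 and 323 normalised reads at 8 months in set 1, against 512, 423, 731 and 540 at 5 months. The libraries of set 2 had 3016, 7547 and 287 at 8 months, against 412, 734 and 650 at 5 months. Replicates 1 and 2 of the 8-month livers were high in each set and the others lay below every 5-month liver, and Saa1 was not called (adjusted p = 0.332 in set 1). Lcn2, a siderophore-binding protein made by hepatocytes and neutrophils, had 294, 1569, 61.6 and 196 at 8 months in set 1, against 52.1, 34.4, 80.4 and 62.8 at 5 months, and rose by 1.96 ± 0.70 (adjusted p = 0.0356). Set 2 had 676, 2877 and 84.2 at 8 months, against 87.6, 206 and 111 at 5 months. Without replicate 2 of the 8-month livers Lcn2 differed by 1.18 in set 1 (adjusted p = 0.271). The call in set 1 was also lost without replicate 1 at 8 months (1.95) or replicate 1, 2 or 4 at 5 months (1.81 to 2.0).

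Members with less spread were the ferroxidase ceruloplasmin (Cp), which rose by 0.53 in set 1 and by 0.51 over both sets, and the haem scavenger haemopexin (Hpx), which rose by 0.55 and 0.49. Hpx was not called without replicate 2 of the 8-month livers in set 1 (0.40), nor without replicate 1 at 8 months (0.50) or at 5 months (0.52), and not over both sets without that replicate of set 1 (0.42) or of set 2 (0.41). Steap4, a metalloreductase, averaged 225 ± 127 normalised reads at 8 months and 95.0 ± 14.1 at 5 months in set 1 (SD, n = 4 each), and 272 ± 106 at 8 months and 102 ± 5.50 at 5 months in set 2 (SD, n = 3 each). In set 1 its call (0.91) was lost without any of 4 libraries in turn, replicates 1 and 2 at 8 months among them (0.75 and 0.64). It rose by 1.03 over both sets (adjusted p = 0.000671). With pairs averaged 0 acute-phase genes were called by limma, and Steap4 had an adjusted p of 0.0669.

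Markers of neutrophils were higher at 8 months in set 1. Of 8 measured markers of a list of 12, 5 rose and 0 fell in set 1, where 10.7% of all genes rose. Over both sets 4 rose and 0 fell, where 5.65% of all genes rose. With pairs averaged 2 rose and 0 fell, where 1.63% of all genes rose. By sign alone, 5 markers were higher and 2 lower in both sets, and 1 lay apart and lower in set 2. Lcn2 is also in the acute-phase list and in the list of fetal liver and tumour genes below. S100a9, a calcium-binding protein abundant in neutrophils, had 19.2, 51.1, 26.8 and 296 normalised reads at 8 months in set 1, against 0, 1.43, 0 and 1.49 at 5 months, and 10.9, 17.6 and 2.53 at 8 months in set 2, against 3.37, 3.54 and 1.97 at 5 months. The groups lay apart in set 1, with replicate 4 highest, and overlapped in set 2. S100a9 rose by 2.37 ± 0.37 in set 1 (adjusted p = 4.64e-06), and the sets differed (1.89 ± 0.55, adjusted p = 0.0179), which was not called without replicate 4 of set 1 (1.26) or replicate 3 of set 2 (1.64) at 8 months. The summed level of the 8 markers was 325, 1659, 115 and 739 normalised reads at 8 months in set 1, against 69.9, 55.9, 97.9 and 65.8 at 5 months. In set 2 it was 698, 2933 and 104 at 8 months, against 123, 228 and 138 at 5 months. Lcn2 was the largest part of the sum in replicates 1 and 2 at 8 months of each set, and S100a9 in replicate 4 of set 1. Retnlg, with at most 22.8 normalised reads in any of the 14 libraries, rose by 0.92 over both sets.

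Of 16 markers of recruited macrophages, 3 rose and 0 fell in set 1, where 10.7% of all genes rose. Over both sets 2 rose and 0 fell, where 5.65% of all genes rose, and 0 were called by limma with pairs averaged. Of 18 markers of Kupffer cells, the resident macrophages of the liver, 0 were called by limma in set 1, in set 2 or over both sets. Clec4f, a Kupffer cell receptor, averaged 325 ± 159 normalised reads at 8 months and 341 ± 121 at 5 months in set 1 (SD, n = 4 each). Of 16 B and plasma cell markers 0 were called by limma in either set, and the light chain Igkc differed by 1.35 over both sets (adjusted p = 0.0801) and by 1.36 with pairs averaged (adjusted p = 0.0270). Of 31 proliferation genes, 1 rose and 1 fell in set 1, where 10.7% of all genes rose and 11.1% fell. They were the replication helicase subunit Mcm7 (0.80) and the ribonucleotide reductase subunit Rrm1 (-0.50). Rrm1 was not called without replicate 1 at 5 months or replicate 2 at 8 months (-0.43 and -0.45).

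Genes known from fetal liver and liver tumours were followed because tumours were sampled at the same age. Of 25 members, 5 rose and 1 fell in set 1, where 10.7% of all genes rose and 11.1% fell, and 5 rose and 2 fell over both sets, where 5.65% rose and 5.96% fell. Lcn2, described above, was among those that rose, and WT tumours had 2489 to 16522 normalised reads of it in set 1 and 5697 to 9669 in set 2. With pairs averaged 3 rose and 0 fell, where 1.63% of all genes rose. H19, an imprinted non-coding RNA (chr7:142575530-142578146), had 153, 111, 133 and 5187 normalised reads at 8 months in set 1, against 30.1, 14.3, 6.70 and 31.4 at 5 months. Levels in set 2 were 483, 217 and 25.3 at 8 months, against 13.5, 23 and 19 at 5 months. Every 8-month library lay above the 5-month libraries of its set, and replicate 4 of set 1 was far above the rest and within the range of the 4 WT tumours of set 1, from 207 to 17311. H19 rose by 3.16 ± 1.14 in set 1 (adjusted p = 0.0373), and without replicate 4 the difference was 1.90 and was not called (adjusted p = 0.259). The call was also lost without any 1 of the 4 livers at 5 months, with differences of 2.96 to 3.30. The call of H19 over both sets was lost without replicate 4 at 8 months of set 1 (2.02) or without replicate 1 (2.28) or replicate 2 (2.55) at 8 months of set 2.

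The same library was the highest of set 1 for Tff3, a secreted trefoil peptide, and Scd2, a fatty acid desaturase. Tff3 had 282, 63.3, 143 and 1430 normalised reads at 8 months in set 1, against 23.3, 1.43, 10.7 and 40.4 at 5 months, with 1536 to 4853 in the tumours. High levels of Tff3 were not limited to tumours, since WT liver at 1 month had 71.3, 2112, 89.6 and 690 in set 1 and 4140, 351 and 763 in set 2. Scd2 had 108, 153, 150 and 1174 at 8 months, against 47.9, 31.5, 30.8 and 89.7 at 5 months, with 3062 to 5414 in the tumours. Tff3 and Scd2 both rose in set 1, by 2.94 and 1.90, and over both sets, by 2.65 and 1.33. Without replicate 4, Tff3 and Scd2 differed in set 1 by 2.16 and 1.18 and were not called, and over both sets Scd2 differed by 0.97 and was not called. The call of Scd2 over both sets was also lost without replicate 1 at 5 months (1.29) or replicate 1 (1.27) or 2 (1.16) at 8 months of set 2, and with pairs averaged (adjusted p = 0.0754). That library had no partner in set 2, where Tff3 had 491, 534 and 96.9 at 8 months, against 13.5, 20.4 and 140 at 5 months. The part of tumour tissue in these values was not tested.

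Position along the liver lobule was followed with markers of its 2 ends. Of 23 pericentral genes, 0 rose and 4 fell in set 1, where 11.1% of all genes fell, and 0 were called by limma over both sets. With pairs averaged 0 rose and 2 fell, where 1.66% of all genes fell. By sign alone, 1 was higher and 12 were lower in both sets. Cyp2e1, the cytochrome that activates DEN, fell by 1.5 in set 1, and in set 2 its difference was -0.27. Of 20 periportal genes, 2 rose and 4 fell in set 1 and over both sets, and 2 rose and 1 fell with pairs averaged. Of all genes, 10.7% rose and 11.1% fell in set 1, and 5.65% rose and 5.96% fell over both sets. With pairs averaged 1.63% of all genes rose and 1.66% fell. The urea cycle enzymes Ass1 and Asl fell by 1.05 and 1.0 in set 1 and by 0.74 and 0.71 over both sets, where Ass1 was not called without replicate 2 at 8 months of set 2 (-0.65) or with pairs averaged (adjusted p = 0.0901). Of 43 nuclear genes of the respiratory chain, 1 rose and 13 fell in set 1, where 11.1% of all genes fell. Over both sets 1 rose and 9 fell, where 5.96% of all genes fell. The list medians were -0.22 in set 1 and -0.12 in set 2. Total-read scaling gave 6 higher and 6 lower in set 1, where 16.5% of all genes were higher and 4.53% lower. Over both sets it gave 2 higher and 3 lower, where 11.4% of all genes were higher and 1.94% lower. With pairs averaged 1 rose and 4 fell, where 1.63% of all genes rose and 1.66% fell. Atp5c1, the gamma subunit of ATP synthase, differed between the sets (-0.79 ± 0.18, adjusted p = 0.00231), and so did Ndufv2, a subunit of complex I (-1.06 ± 0.20, adjusted p = 0.000248).

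**Figure D4:**
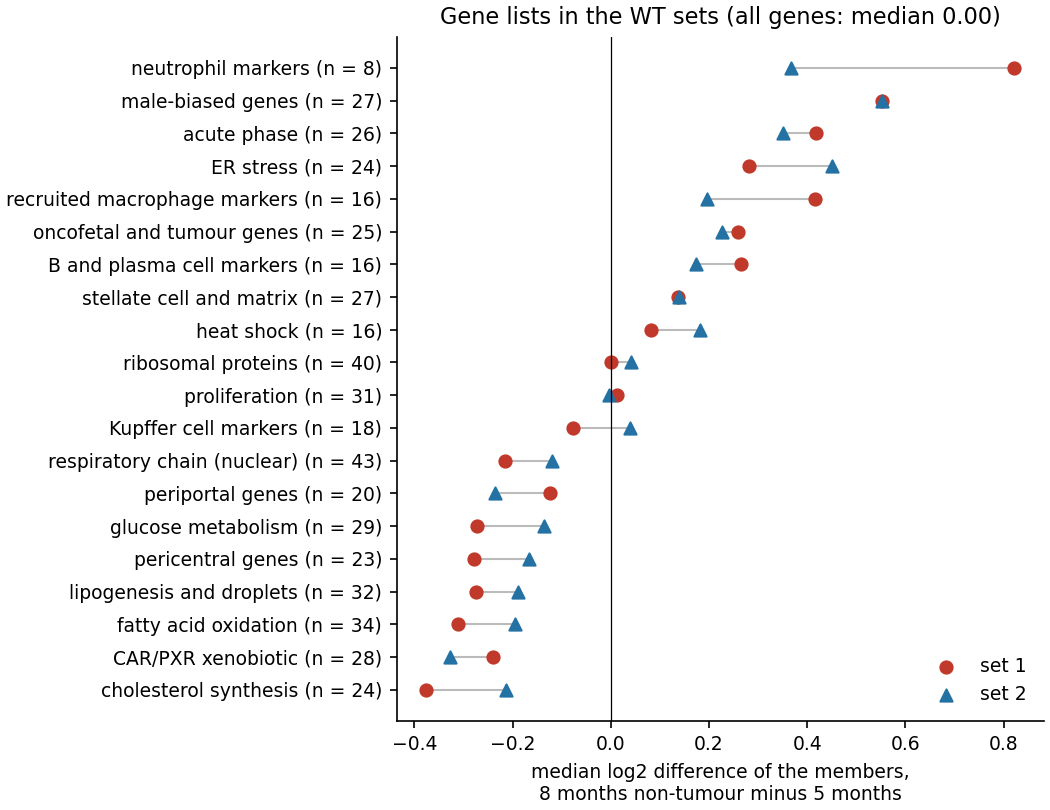
Median log2 difference (8 months non-tumour minus 5 months) of the measured members of 20 gene lists, red circles for set 1 and blue triangles for set 2, against a median of 0.00 over all genes. The male-biased list lies at 0.55 in both sets, and the lists of cholesterol synthesis, fatty acid oxidation and lipid synthesis lie below 0 in both.

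Of the genes called in set 1, 994 of 2820 (35.2%) also differed between the sets. Ykt6, a SNARE of vesicle fusion, had the smallest p of set 1. It had 605, 782, 690 and 582 normalised reads at 8 months, against 1952, 1904, 1744 and 1797 at 5 months, while set 2 had 259, 434 and 387 at 8 months, against 359, 334 and 339 at 5 months. The groups were far apart in set 1 and overlapped in set 2, and the sets differed by -1.48 ± 0.19 (adjusted p = 1.39e-07). Yy1, a zinc finger transcription factor, had 341, 284, 310 and 224 at 8 months in set 1, against 107, 112, 76.4 and 70.3 at 5 months, and 400, 300 and 295 at 8 months in set 2, against 435, 420 and 356 at 5 months. It rose by 1.43 in set 1, and the sets differed by 1.70 ± 0.22 (adjusted p = 2.55e-07). The ceramide synthase Cers2 fell by 1.5 in set 1 and the splicing factor Srrm2 rose by 1.07, and in set 2 they differed by 0.16 and -0.34.

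The age difference was also measured in the knockouts sequenced with set 1. Their 8-month and 5-month libraries are other samples than those of WT, but share its sequencing group. Across 12966 genes, the age difference of WT in set 1 had a Pearson's r of 0.74 with that of IKO and 0.60 with that of SKO, whereas WT in set 2 had 0.11 and -0.00 with them. WT in set 2 had 0.10 with BKO and 0.20 with MKO, the knockouts sequenced with it. Of the 2820 genes called in WT of set 1, 2720 (96.5%) had the same sign in IKO and 2606 (92.4%) in SKO. The age difference of IKO minus that of WT was called at 0 genes by limma (0%), with 1028 genes (7.93%) at an unadjusted p below 0.05, and that of SKO minus WT at 33 (0.255%). In set 2 it was called at 1 gene in BKO (0.00771%) and at 28 in MKO (0.216%). Hamp2 and Hddc3 were exceptions to the shared pattern by their values, with Hddc3 at 0.02 in IKO and 0.10 in SKO.

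The difference with age in set 1 moved with transcript GC content. GC content was known for 12217 genes, from a GENCODE protein-coding transcript. Spearman's rank correlation between the difference and GC content was -0.27 in WT of set 1, -0.33 in IKO and -0.33 in SKO. In the second sequencing group it was 0.05 in WT of set 2, 0.12 in BKO and 0.19 in MKO. In WT of set 1 the lowest of 10 bins, with a median GC content of 40.3%, had a median difference of 0.19, and the highest, at 59.8%, had -0.14. In WT of set 2 these bins had -0.02 and -0.00, in BKO -0.05 and 0.05, and in MKO -0.08 and 0.12. With the values centred within GC bins, 2571 genes were called in set 1. The part of GC content or of the sequencing run in the age difference was not tested.

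**Figure D5:**
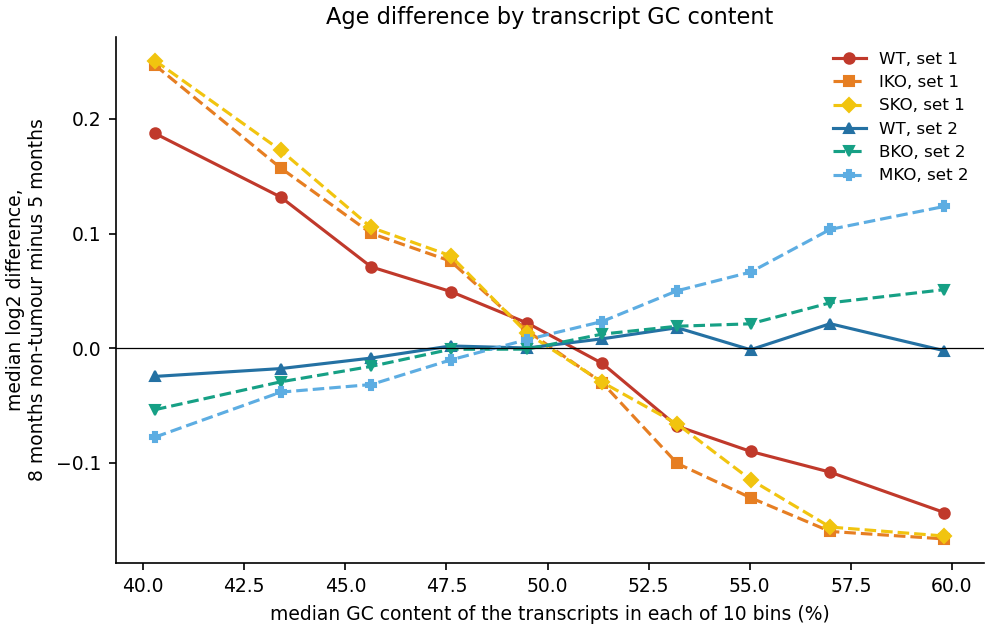
Median log2 difference with age (8 months non-tumour minus 5 months) in 10 bins of transcript GC content for 12217 genes, solid lines for the 2 WT sets and dashed lines for the knockouts. WT of set 1, IKO and SKO run downward with GC content, WT of set 1 from 0.19 to -0.14. WT of set 2 stays between -0.02 and 0.02, and BKO and MKO run upward, MKO from -0.08 to 0.12.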

How the data were processed

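Liver RNA was extracted by a method the labels name MAPS and sequenced on an Illumina HiSeq2000, per the labels' protocols. STAR 2.7.10a, HTSeq 2.0.2, DESeq2 1.32.0 and GRCm38 (mm10) are named in the submitters' processing notes. The authors deposited log2 values on a variance-stabilised scale, 1 per gene and library. A gene without reads had the value 3.8289 in every library, and inverting the scale returned read counts that were whole to within 0.05 for 100% of the values checked. These reads gave the depths, levels and the limma-voom alternative. Nothing says that replicates came from separate animals beyond the word biological, so p-values measure the spread between libraries. That spread was pooled over all groups of a fit, knockouts and tumours included, and is not that of the WT libraries alone.

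Tests used limma 3.58.1 in R 4.3.3 on the deposited log2 values, with 1 mean per group, moderation with a trend, no filter on low values and Benjamini-Hochberg adjustment over all genes. Each set was fitted within its sequencing group (60 and 45 libraries), and both sets, weighted equally, and their difference on all libraries. Averaged pairs were fitted 3 against 3, on WT libraries alone. Promoter sequences and gene positions are from RefSeq (GRCm38.p6). Transcript GC content is that of the longest protein-coding GENCODE transcript of each gene symbol.

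The comparison, the 42 gene lists and the 2 promoter motifs were chosen with earlier results of these data known. Genes were named by a rule that gave 160, of which the text describes a part. In each set it took the 10 largest rises and falls among called genes whose groups did not overlap. Over both sets it took up to 12 rises and 12 falls with the smallest p and the same sign in both, and for the difference between sets the 8 smallest p. The lists gave at most 4 called members each, or else the 2 most abundant. Where fewer than 5 genes of a direction were called in a set, it also took the 5 smallest unadjusted p of that direction. Alternatives were the groups in the fit, quantile normalization, a stricter filter, moderation, library weights, the replicate block, limma-voom and leaving out each library. Total-read scaling, centring by GC content and 3 treatments of paired libraries were chosen after seeing the data.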

Additional observations from a re-analysis of the deposited data

Results flagged for a closer look

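Among the 132 groups of 4 libraries tested over the named genes, 9 (6.82%) had 1 library far from the other 3, and chance gives about 5%. In 8-month non-tumour liver of set 1, replicate 2 was low for Alb, with 162419 normalised reads. Replicate 4 of the same group was high for H19, with 5187, and for Scd2, with 1174. In 5-month liver of set 1, replicate 1 was low for Hamp2, with 1897, and for Hddc3, with 12.3, and it was the only library of its group with reads of Retnlg, at 2.74. Replicate 2 was high for Hspa5, with 2839, and low for Ndufv2, with 5424, and replicate 3 was low for Dbndd2, with 0.

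The age difference differed between the sets, by limma's test of the difference, at 1058 genes and at 11 of the 66 named genes. As set 1 minus set 2 on the log2 scale, it was 1.58 for Pnrc1, 1.56 for Ppara, 1.89 for S100a9, 1.70 for Yy1 and 1.40 for Srrm2. It was -1.02 for Stat5b, -1.48 for Ykt6, -1.66 for Cers2, -0.79 for Atp5c1, -1.06 for Ndufv2 and -0.86 for Slc38a3, an amino acid transporter of hepatocytes. The difference of Slc38a3 was not called without any of 6 of the 14 libraries in turn (-0.89 to -0.75).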

How the results depend on the processing

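In set 1 the 2820 calls became 2564 to 3523 over the other settings with all libraries, 2241 with paired libraries alone and 2205 to 2598 without 1 library. In set 2 the 5 calls became 10 with the non-tumour groups alone, 18 with library weights, 3 with limma-voom, 1 with total-read scaling, and 2 to 8 without 1 library. They fell to 2 without replicate 1 or 2 at 5 months or replicate 1 at 8 months and to 3 without replicate 2 at 8 months, and were 8 without replicate 3 at 5 months. Over both sets the 1505 calls became 2419 with library weights, 426 with pairs averaged, 1217 with pairs as a random effect, and 1011 to 1555 without 1 library. The 1058 genes that differed between the sets became 1980 with pairs as a random effect and 578 to 1138 without 1 library, with 678 without replicate 2 at 5 months and 578 without replicate 3 at 8 months of set 2. The cause was not tested. An alternative without a filter was not run, since the fit removed no gene.

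With the replicate block, 2855 genes were called in set 1, 7 in set 2, 1540 over both sets and 1070 for their difference. Same-numbered libraries of the 2 ages did not deviate together (r of -0.0467, -0.0181, -0.00782 and 0.0497 in set 1, and -0.131, 0.0522 and -0.0666 in set 2), and not every library went best with its own number, so they share only a number.

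Of 122 results for named genes, 0 changed sign under these settings. Leaving out 1 library ended the call in 173 of 1356 cases, in 42 of the results, and averaging pairs ended 19 of 54.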
